A study of Homo sapiens with 38 samples.

Results

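BE2C is an established human neuroblastoma cell line with MYCN amplification. The comparison described here sets BE2C cells treated with a control siRNA (siCtrl) for 72 h against BE2C cells labelled GSK-J4 0 h, the start of a time series with that KDM6 demethylase inhibitor. It takes 8 of the 38 samples of the series, chosen by their labels, namely the 4 siCtrl files and the 4 files at 0 h. The 2 files of each replicate were summed, which gave 2 libraries a side. Both groups are the same line grown in RPMI medium with 10% FBS, and neither received an active siRNA or an inhibitor for any length of time. The siCtrl cells had been transfected with a commercial non-targeting siRNA in Lipofectamine RNAiMax and harvested at 72 h. The 0 h cells belong to another experiment, and the labels name no vehicle for them. Transfection, time in culture and experiment therefore cannot be told apart in any difference given here. BE2C is 1 line, and nothing in the labels says whether the 2 libraries of a group came from separate cultures, so the tests measure the spread between these libraries, which may be technical. The other BE2C samples of the series enter the CPM scale, some alternative fits and a later comparison. They received siRNAs labelled siKDM6B N1, N2 or N33 for 72 h, or 2.5 µM GSK-J4 for 24 h or 48 h.

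Neuroblastoma arises from the sympathetic lineage, and most of its cell lines keep an adrenergic identity that rests on transcription factors such as HAND2, ISL1 and GATA3. Some cells take up a mesenchymal state instead, with matrix genes, vimentin and receptor signalling through the MAP kinase pathway. Lipid transfection of a short double-stranded RNA can load the RNA interference machinery and can be sensed by innate immune receptors, which makes interferon-stimulated genes a usual point to check in a control of this kind. A control siRNA is commonly read as the zero of a knockdown experiment, and its distance from untransfected cells is seldom shown.

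The 0 h libraries held 36716756 and 36186567 counts on genes and the siCtrl libraries 41227956 and 47393730, so 3 counts amounted to 0.0633 to 0.0829 CPM (counts scaled to a fixed library total). Such limits hold for counting error alone, as the reads carry no molecular identifiers. The share of read pairs on no gene was 10.3% and 10.1% at 0 h and 12.5% and 12.7% in siCtrl. Levels below are in CPM scaled by TMM over the 11 BE2C libraries, and they are compared between libraries and not between genes. Tests of libraries used edgeR's quasi-likelihood test of the 4 libraries, with Benjamini-Hochberg adjustment over all genes, and "called" means an adjusted p under 0.05. Each log2 fold change is siCtrl over 0 h.

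All 9 adrenergic markers reached 1 CPM in at least 1 of the 4 libraries. So did 4 of 6 mesenchymal and all 4 fibroblast markers, so such a count does not by itself set the cell type. The summed level of the adrenergic markers was 4487 to 4507 CPM at 0 h and 2603 to 2660 CPM in siCtrl. The amplified MYCN is among the 9 and makes up most of these sums and of their fall, and its level is given below. Markers of immune cells (PTPRC, CD68, CD3E and CD79A) summed to at most 0.203 CPM in any library, and no epithelial, endothelial or immune marker reached 1 CPM. CD3E, SOX10, KRT5, KRT14 and ALB were listed at 0 in all 4 libraries. The 4 fibroblast markers summed to 108 to 109 CPM at 0 h and to 153 CPM in both siCtrl libraries, and their members are given below.

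The groups differed in most of the measured transcriptome, mostly by small steps. Of 16253 genes tested, 8529 were called, which is 52.5%. Of these, 4264 were higher and 4265 lower in siCtrl, or 26.2% of the tested genes each way. The called genes had a median absolute log2 fold change of 0.42, and 1157 of them changed more than 2-fold, with 789 higher and 368 lower. The spread within groups was small, with a common biological coefficient of variation of 0.0387, 0.0239 from the 0 h pair alone and 0.0483 from the siCtrl pair alone.

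**Figure D1:**
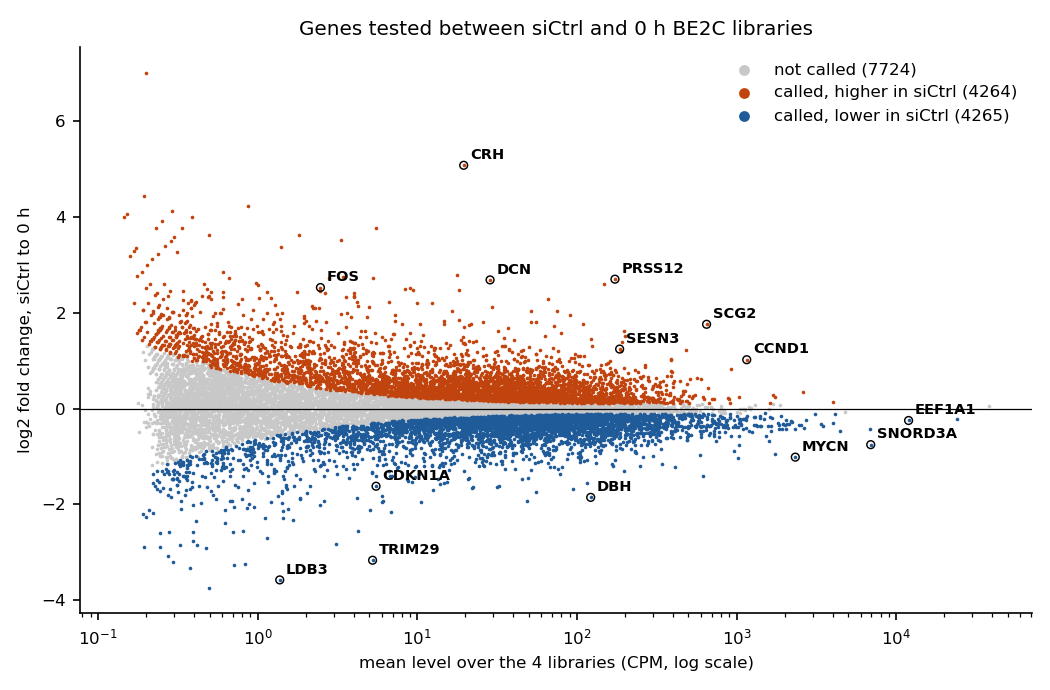
Log2 fold change of siCtrl over 0 h (y axis) against mean CPM over the 4 libraries (x axis, log scale) for each tested gene, coloured by call. The 4264 higher and 4265 lower genes lie on both sides of 0 at all levels, with CRH at 5.07 and LDB3 at -3.57 among the labelled genes.

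The balance between directions depended on the scaling. TMM left the called genes evenly divided. The share that was higher was 54.8% with upper-quartile scaling and 64.9% with library totals. It was 35.2% with TMM and offsets for transcript length and GC content. Those offsets were fitted to levels on library totals and then added to the TMM factors. They thus hold an overall difference between the groups as well, and moved the median of all tested genes by -0.099. A turn of sign with them cannot be credited to length and GC alone. The median of all tested genes was 0.01 in log2 with TMM, 0.11 with library totals and -0.09 with the length and GC offsets. A list's median is given below beside that of all genes, and a list whose sign turned under one of these scalings is named. Counts of called members are likewise to be read beside the 52.5% of all tested genes that were called, 26.2% each way.

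Genes were ranked among those called with a mean of at least 1 CPM and groups that did not overlap. The 10 protein-coding genes with the largest rise by this rule were CRH, HTR2B, COL8A1, PDE1C, C7, PTPRE, FAM114A1, FBLIM1, PRSS12 and DCN. CRH, which encodes corticotropin-releasing hormone, stood at 1.26 and 0.988 CPM at 0 h and at 38.4 and 37.5 CPM in siCtrl. Its groups were far apart, with a log2 fold change of 5.07 ± 0.12 (SE; adjusted p = 1.47e-20). HTR2B, the serotonin receptor 2B, was measured at 1.205 and 0.291 CPM at 0 h against 10.9 and 9.48 CPM. Its 0 h libraries were less alike than its siCtrl libraries, both below them, and the log2 fold change was 3.76 ± 0.23 (adjusted p = 9.5e-13). The size rested on the 0 h libraries, being 5.11 without 0 h replicate 1 and 3.08 without 0 h replicate 2. PRSS12, which encodes the protease neurotrypsin, moved from 46.8 and 45.8 CPM to 301 and 299 CPM (log2 fold change 2.70 ± 0.05, adjusted p = 1.88e-22). It had the most counts of the 10 genes. C7, a component of the complement membrane attack complex, rose from 4.36 and 4.65 CPM to 31.6 and 30.0 CPM (log2 fold change 2.78 ± 0.09). The remaining genes of the 10 stayed under 10 CPM in all 4 libraries except DCN, which is described with the matrix genes.

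The 10 largest falls among protein-coding genes by the same rule were those of LDB3, TRIM29, DGAT2, SLC19A3, PMEL, SLIT1, LMO1, MTUS2, SMTNL2 and IGSF1. All started below 12 CPM. TRIM29, a tripartite motif protein of epithelia and nerve, fell from 9.35 and 9.56 CPM to 0.984 and 1.11 CPM (log2 fold change -3.16 ± 0.15, adjusted p = 1.32e-14). LDB3, known for its place at the muscle Z-disc, was at 2.21 and 2.88 CPM and then at 0.192 and 0.226 CPM, which rests on 8 and 11 counts in the siCtrl libraries. DGAT2, an enzyme of triglyceride synthesis, went from 5.85 and 4.998 CPM to 0.912 and 0.636 CPM (log2 fold change -2.82 ± 0.20). LMO1, a LIM-only transcription co-factor linked to neuroblastoma risk, was low in both groups, with 1.95 and 1.74 CPM at 0 h and 0.264 and 0.472 CPM in siCtrl (log2 fold change -2.29 ± 0.30).

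In amount, the largest rises in CPM were those of CCND1, SCG2, ACTB, MALAT1, SFRP1, RGS5, TUBA1A, BCAT1, TPM1 and MAP3K1. RGS5 changed direction with the length and GC offsets, from 0.14 to -0.21 in log2. The largest falls were those of RN7SK, SNORD3A, EEF1A1, RPPH1, MYCN, RMRP, CHGA, EEF2, NPM1 and RPL4. Many of these fall into groups of known function, which are taken in turn.

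MYCN, the amplified oncogene of this line (GRCh37 chr2:16080672-16087129, plus strand), was measured at 3121 and 3125 CPM at 0 h and at 1540 and 1549 CPM in siCtrl. The groups did not overlap and the libraries within each were close, and the log2 fold change was -1.01 ± 0.04 (adjusted p = 1.13e-15). Most other adrenergic factors fell too. Of 17 factors of the adrenergic list, 12 were called lower and 2 higher, with a median log2 fold change of -0.47 beside 0.01 for all genes. ISL1, a LIM-homeodomain factor of sympathetic neurons, dropped to 114 and 116 CPM from 159.6 and 160.6 CPM (log2 fold change -0.48 ± 0.05). GATA3 went from 78.8 and 83.8 CPM to 49.4 and 67.8 CPM (log2 fold change -0.47 ± 0.09), with the siCtrl libraries apart from each other but both below 0 h. INSM1, a zinc-finger factor of neuroendocrine cells, rested on 48 and 42 counts at 0 h and on 5 and 7 counts in siCtrl (log2 fold change -3.26 ± 0.38).

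Not every adrenergic factor followed. PHOX2A was at 158 and 161 CPM at 0 h and at 150.2 and 162 CPM in siCtrl, with overlapping groups and an adjusted p of 0.64. HAND2 stood at 480.5 and 479 CPM and at 512 and 515 CPM (log2 fold change 0.10 ± 0.04, adjusted p = 0.0504). GATA2 rose from 406 and 413 CPM to 474 and 511 CPM, and TBX2 from 169 CPM in both libraries to 217 and 225 CPM. These are called changes in the opposite direction, with log2 fold changes of 0.27 ± 0.05 and 0.39 ± 0.05.

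Genes of the catecholamine route and its secretory granules were divided. Of 16 tested, 8 were lower and 5 higher, with a median of -0.18. DBH, which converts dopamine to noradrenaline, fell from 187 and 196 CPM to 48.8 and 56.7 CPM (log2 fold change -1.85 ± 0.06, adjusted p = 5.95e-18). TH, the rate-limiting enzyme of catecholamine synthesis, fell from 32.9 and 34.2 CPM to 11.1 and 10.3 CPM (log2 fold change -1.65 ± 0.08). DDC, the decarboxylase between them, changed little by comparison, from 187 and 192 CPM to 169.8 and 163 CPM (log2 fold change -0.19 ± 0.05, adjusted p = 0.00158). The granule proteins went both ways. CHGA, chromogranin A, was at 2279 and 2298 CPM at 0 h and at 1158 and 1211 CPM in siCtrl (log2 fold change -0.95 ± 0.04). SCG2, secretogranin II, moved from 290 and 304 CPM to 1028 and 975 CPM (log2 fold change 1.76 ± 0.05, adjusted p = 2.39e-19). The groups of both genes were well apart, in opposite directions. The vesicular transporters also parted, with SLC18A1 (VMAT1) at 86.9 and 84.5 CPM against 47.1 and 47.8 CPM and SLC18A2 (VMAT2) at 10.5 and 10.96 CPM against 16.6 and 15.7 CPM.

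**Figure D2:**
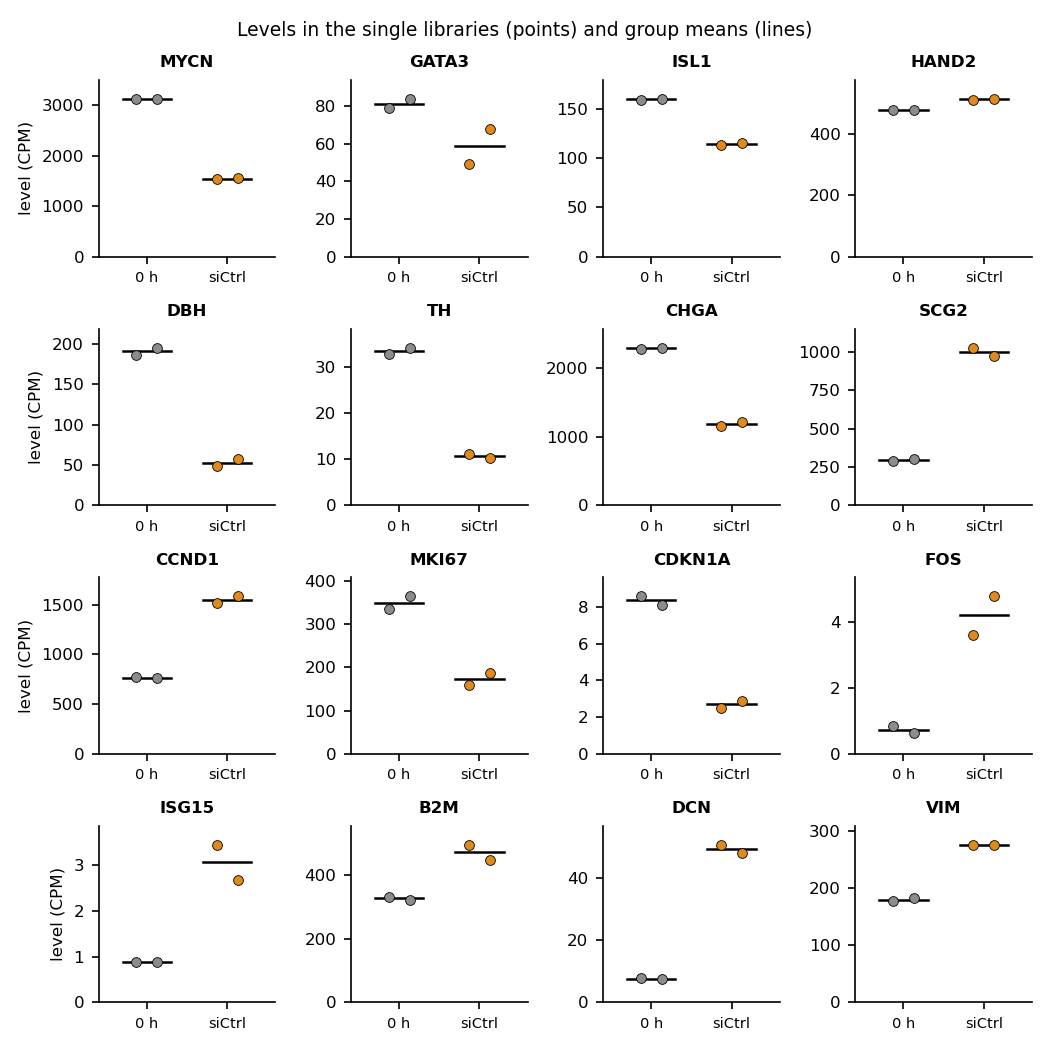
CPM of 16 genes (y axes, each from 0) in the single libraries (points) at 0 h and in siCtrl, with group means as lines. MYCN, GATA3, ISL1, DBH, TH, CHGA, MKI67 and CDKN1A are lower in both siCtrl libraries, HAND2 is at 479 to 515 CPM throughout, and SCG2, CCND1, FOS, ISG15, B2M, DCN and VIM are higher in both.

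Genes of neuronal differentiation showed the same mixture, with 16 of 29 lower and 5 higher (median -0.15). ALK, a receptor tyrosine kinase mutated in neuroblastoma, was lower, at 45.8 and 46.1 CPM against 21.1 and 22.04 CPM (log2 fold change -1.09 ± 0.06). RET, another receptor tyrosine kinase of this lineage, was higher, at 189.8 and 183 CPM against 338 and 362 CPM (log2 fold change 0.91 ± 0.05). REST, the repressor of neuronal genes outside the nervous system, was named after its values were seen: it rose from 2.87 and 2.91 CPM to 15.8 and 16.2 CPM (log2 fold change 2.47 ± 0.11, adjusted p = 4.62e-15). Ligands of the Notch pathway, by which neighbouring cells hold back neuronal fate, were lower for all 5 tested (DLK1, DLL1, DLL3, JAG1 and JAG2). DLK1 was at 566 and 583 CPM against 229 and 267 CPM (log2 fold change -1.21 ± 0.06), and DLL3 at 37.6 and 35.6 CPM against 16.6 and 17.7 CPM (log2 fold change -1.09 ± 0.07). HEY1, a target of Notch receptors, was higher at 53.8 and 55.1 CPM than at 23.7 and 24.6 CPM before (log2 fold change 1.18 ± 0.06). Over the 12 tested genes of the pathway, 8 were lower and 3 higher, with a median of -0.52.

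Of 14 tested genes of the mesenchymal list, 9 were higher and 2 lower, and the median was 0.26. VIM, the intermediate filament vimentin, was measured at 177 and 182 CPM and then at 276 and 275 CPM (log2 fold change 0.62 ± 0.05). LGALS1, galectin-1, rose from 40.2 and 43.2 CPM to 98.3 and 101 CPM (log2 fold change 1.26 ± 0.06), and FN1, fibronectin, from 29.0 and 33.7 CPM to 52.1 and 56.6 CPM (log2 fold change 0.80 ± 0.07). The defining factors PRRX1 and FOSL1 remained at or near 0, with PRRX1 at a mean of 0.024 CPM in siCtrl and FOSL1 listed at 0. CD44, a surface marker of the mesenchymal state, was lower, at 3.84 and 4.50 CPM against 2.40 and 2.75 CPM (log2 fold change -0.69 ± 0.16).

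The small leucine-rich proteoglycans DCN (decorin) and LUM (lumican), neighbours on chromosome 12 and usual markers of fibroblasts, were both called higher. DCN (GRCh37 chr12:91534261-91576994, minus strand) was at 7.80 and 7.61 CPM at 0 h and at 50.8 and 48.1 CPM in siCtrl, with a log2 fold change of 2.68 ± 0.08 (adjusted p = 8e-19). LUM was at 5.74 and 5.35 CPM and then at 32.8 and 28.7 CPM (log2 fold change 2.47 ± 0.09). Among the other fibroblast markers PDGFRA rose from 1.52 and 1.48 CPM to 3.94 and 4.06 CPM, whereas PDGFRB fell from 92.6 and 94.3 CPM to 65.4 and 72.3 CPM. The fibrillar collagen COL1A2 was listed at 0 in all 4 libraries. Of the 7 tested markers of other cell types, 4 were higher, DCN, LUM and PDGFRA among them, and 1 was lower. The 4 Schwann markers summed to 1.45 to 2.47 CPM at 0 h and to 4.80 to 4.90 CPM in siCtrl, with 2 of 4 reaching 1 CPM. The text on RNA extraction in the labels speaks of xenograft tissue, although every sample is labelled as a cell line. The part of other cells in the rise of DCN and LUM was not tested, and in bulk samples fewer cells of a type and less RNA per cell cannot be told apart.

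The collagens and laminins did not move as a block, with 9 of 22 tested matrix genes higher, 7 lower and a median of 0.17. COL6A3 went from 2.93 and 2.53 CPM to 7.63 and 8.54 CPM (log2 fold change 1.57 ± 0.13). COL4A2, of the basement membrane, went the other way, from 57.1 and 58.8 CPM to 30.2 and 32.1 CPM (log2 fold change -0.89 ± 0.06). Of the 10 largest rises in amount, 2 were of actin filament genes. ACTB, cytoplasmic actin, was at 2280.5 and 2339 CPM and then at 2890 and 2978 CPM (log2 fold change 0.35 ± 0.04), and TPM1, tropomyosin 1, at 253 and 260 CPM and then at 538 and 511 CPM (log2 fold change 1.04 ± 0.05). MSN (moesin), which links actin to the membrane, rose from 11.3 and 10.7 CPM to 45.9 and 48.9 CPM (log2 fold change 2.11 ± 0.07), and AHNAK from 39.8 and 44.9 CPM to 238 and 272 CPM (log2 fold change 2.60 ± 0.06). AHNAK and MSN were chosen after their values were seen.

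The feedback genes of MAP kinase signalling, transcribed when ERK is active and in turn restraining it, were among the most uniform lists. Of 12 tested, 10 were higher and 1 lower, with a median of 0.65. DUSP6, the ERK phosphatase, stood at 5.11 and 5.35 CPM at 0 h and at 13.4 and 12.4 CPM in siCtrl (log2 fold change 1.30 ± 0.10, adjusted p = 1.66e-10). SPRY2, a Sprouty inhibitor of receptor signalling, was at 55.6 and 52.6 CPM and then at 95.4 and 94.8 CPM (log2 fold change 0.82 ± 0.05). SPRY4 moved in the same way, from 34.8 and 35.3 CPM to 52.9 and 57.1 CPM. The exception was SPRY1, which rested on 15 and 18 counts at 0 h and on 3 and 11 in siCtrl (log2 fold change -1.60, and -2.67 without siCtrl replicate 2).

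Immediate early genes, the first to answer growth factors and stress, were higher for 11 of 23 tested and lower for 0 in edgeR, with a median of 0.28. FOS was at 0.832 and 0.639 CPM and then at 3.62 and 4.80 CPM (log2 fold change 2.52 ± 0.22, adjusted p = 7.63e-10). EGR1, a zinc-finger factor downstream of ERK, rose from 1.29 and 1.39 CPM to 6.10 and 7.32 CPM (log2 fold change 2.33 ± 0.17). JUNB and DUSP1 of the same list were not called. CCND1, cyclin D1, a known target of this pathway, had the largest rise in CPM of all genes named by the rule, from 772 and 762 CPM to 1515 and 1585 CPM (log2 fold change 1.02 ± 0.04, adjusted p = 2.04e-15). MAP3K1, a kinase upstream of JNK and ERK, was at 258 and 261 CPM and then at 529 and 514 CPM (log2 fold change 1.01 ± 0.04).

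Interferon-stimulated genes were low in both groups, and part of them rose. Of 40 listed, 25 passed the filter on low counts, and of these 14 were higher and 0 lower in edgeR, with a median of 0.68. The called share of 56.0% was near the 52.5% of all genes, whereas 26.2% of all genes were called higher. None was lower at an unadjusted p under 0.05 either, nor with DESeq2 or limma-voom, and the same held for each count of 0 given here for a list, except where stated. With a minimum of 10 counts in each library, 13 of the list were called and the median was 0.65. The summed level of the 40 was 239.8 and 239 CPM at 0 h and 281 and 284 CPM in siCtrl. ISG15, a ubiquitin-like modifier, had the largest change, from 0.889 and 0.872 CPM to 3.43 and 2.67 CPM (log2 fold change 1.78 ± 0.22, adjusted p = 2.44e-07). OAS1, an oligoadenylate synthetase that senses double-stranded RNA, was at 4.96 and 5.35 CPM and then at 8.50 and 8.62 CPM (log2 fold change 0.73 ± 0.11). PARP14 was at 2.18 and 2.70 CPM against 4.75 and 5.35 CPM (log2 fold change 1.06 ± 0.16). STAT2 rose to 16.1 and 17.0 CPM from 9.89 and 11.5 CPM. IFIT1 was higher in both siCtrl libraries but was not called, at 1.06 and 0.697 CPM against 1.27 and 1.23 CPM (adjusted p = 0.12). MX1, IFI44L, OASL and HERC5 stayed below the filter in all 4 libraries.

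These genes are known for an interferon-stimulated response element in the promoter. Windows of RefSeq promoters (GRCh38.p14, 250 bases before to 50 after the start) were searched on both strands for GAAANNGAAA, a core of that element, which occurs in 4.38% of the 27305 genes with a window and in 3.67% of those tested here. It was found for 10 of the 12 called interferon genes with a window and for 5 of the 9 that were not called. Windows of 5 of the 10 called genes with a match are shown as examples. The capitals mark the match, which lies on the other strand in IFIT3.
ISG15 (chr1:1013364-1013413, plus strand): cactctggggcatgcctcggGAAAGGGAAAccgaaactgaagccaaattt
DDX60 (chr4:168318811-168318860, minus strand): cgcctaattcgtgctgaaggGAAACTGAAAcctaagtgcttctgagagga
PARP14 (chr3:122680790-122680839, plus strand): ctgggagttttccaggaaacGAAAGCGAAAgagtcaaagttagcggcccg
BST2 (chr19:17405731-17405780, minus strand): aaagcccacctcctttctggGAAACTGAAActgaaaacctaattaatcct
IFIT3 (chr10:89327821-89327870, plus strand): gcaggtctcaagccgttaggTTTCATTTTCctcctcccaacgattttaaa
DDX60, a helicase, was at 0.430 and 0.639 CPM at 0 h and at 1.248 and 1.27 CPM in siCtrl, and IFIT3 rested on 8 and 4 counts against 24 and 24. At 0 h IFIT3 was thus under the stricter minimum of 10 counts. A match describes the letters in the window and is no measure of binding.

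Of the MHC class I list, 5 of 10 tested genes were higher and 1 lower (median 0.53). B2M, the light chain of every class I molecule, was at 331 and 321 CPM and then at 494 and 446 CPM (log2 fold change 0.53 ± 0.05, adjusted p = 1.19e-09). NLRC5, the transactivator of class I genes, rose from 2.61 and 2.53 CPM to 3.82 and 4.78 CPM. None of the 3 heavy chains tested was called higher, and HLA-C was lower, at 7.95 and 8.10 CPM than the 10.01 and 9.76 CPM at 0 h. HLA genes share near-identical stretches, so their split by the counting is uncertain. NF-kB targets gave 1 call among 7 tested genes, that of NFKBIA, the inhibitor of this factor, which fell from 40.2 and 40.6 CPM to 33.3 and 33.9 CPM, and IL6, CXCL8 and CCL2 were listed at 0 in all 4 libraries.

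The sensors of foreign RNA and DNA were often too low to test, with 10 of 19 passing the filter, of which 4 were higher and 2 lower. IFIH1 was listed with no count in the libraries of either group. The RNA interference machinery itself was altered in both directions, with 6 of 16 genes higher and 7 lower. AGO2, the slicing Argonaute that carries the guide strand, fell from 158 and 161 CPM to 91.8 and 97.9 CPM (log2 fold change -0.75 ± 0.05, adjusted p = 4.77e-12). XPO5, the exporter of miRNA precursors, fell from 276 and 279 CPM to 168 and 176 CPM (log2 fold change -0.69 ± 0.05). AGO4 rose from 11.3 and 13.9 CPM to 25.3 and 25.4 CPM (log2 fold change 1.01 ± 0.09). The median over the list was -0.02, and it was 0.01 with upper-quartile scaling and 0.08 with library totals.

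Most genes of DNA synthesis and mitosis were lower in siCtrl. Of 43 S-phase genes, 32 were lower and 1 higher (median -0.24), and of 54 G2/M genes, 34 were lower and 6 higher (median -0.19). MKI67, the proliferation antigen Ki-67, was at 335 and 364 CPM at 0 h and at 159 and 187 CPM in siCtrl (log2 fold change -1.01 ± 0.06, adjusted p = 6.93e-13). MCM2, a subunit of the replicative helicase, went from 385 and 398 CPM to 269 and 264 CPM (log2 fold change -0.55 ± 0.04). TOP2A, topoisomerase II alpha, was at 1448 and 1455 CPM and later at 1056 and 1007 CPM (log2 fold change -0.49 ± 0.04). AURKB, the kinase of the chromosomal passenger complex, fell from 69.3 and 65.7 CPM to 43.6 and 43.0 CPM (log2 fold change -0.64 ± 0.06, adjusted p = 6.77e-10). The 1 S-phase gene that was higher was E2F8, an atypical E2F repressor, at 9.41 and 8.66 CPM against 9.84 and 12.4 CPM (log2 fold change 0.31 ± 0.11, adjusted p = 0.0207), with the groups close to touching.

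Between cyclin D and E2F, 13 of 26 tested genes were lower and 8 higher, so that CCND1 rose while E2F1 fell from 118 and 111 CPM to 82.0 and 79.6 CPM (log2 fold change -0.50 ± 0.05) and E2F2 from 33.4 and 34.9 CPM to 17.4 and 21.7 CPM. CDKN1A, which encodes the CDK inhibitor p21, was lower too, at 8.58 and 8.11 CPM against 2.50 and 2.89 CPM (log2 fold change -1.62 ± 0.13, adjusted p = 1.66e-10). CDKN1B, encoding p27, rose from 88.6 and 81.3 CPM to 105 and 102 CPM. The p53 targets as a list did not follow CDKN1A, with 9 of 20 higher, 3 lower and a median of 0.13. TP53I3 went from 33.7 and 31.6 CPM to 95.8 and 90.3 CPM (log2 fold change 1.51 ± 0.06), and FAS, the death receptor, from 0.402 and 0.320 CPM to 1.82 and 2.05 CPM (log2 fold change 2.42 ± 0.29).

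The mRNAs of replication-dependent histones are made in S phase and lack a poly(A) tail. Of 69 tested genes, 53 were lower and 1 higher, with a median of -0.37, and their summed level over all 89 listed genes was 14463 and 14800 CPM at 0 h and 10880 and 10607 CPM in siCtrl. HIST1H3B, an H3 gene, was measured at 723 and 731 CPM and then at 480.3 and 475 CPM (log2 fold change -0.60 ± 0.04). HIST1H1E, encoding linker histone H1.4, went from 592 and 599 CPM to 404 and 389.6 CPM (log2 fold change -0.58 ± 0.04). The higher gene was HIST1H3E, at 32.1 and 32.7 CPM against 37.9 and 37.6 CPM. Histone genes are near-identical copies, so that the division of reads among them is uncertain.

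**Figure D3:**
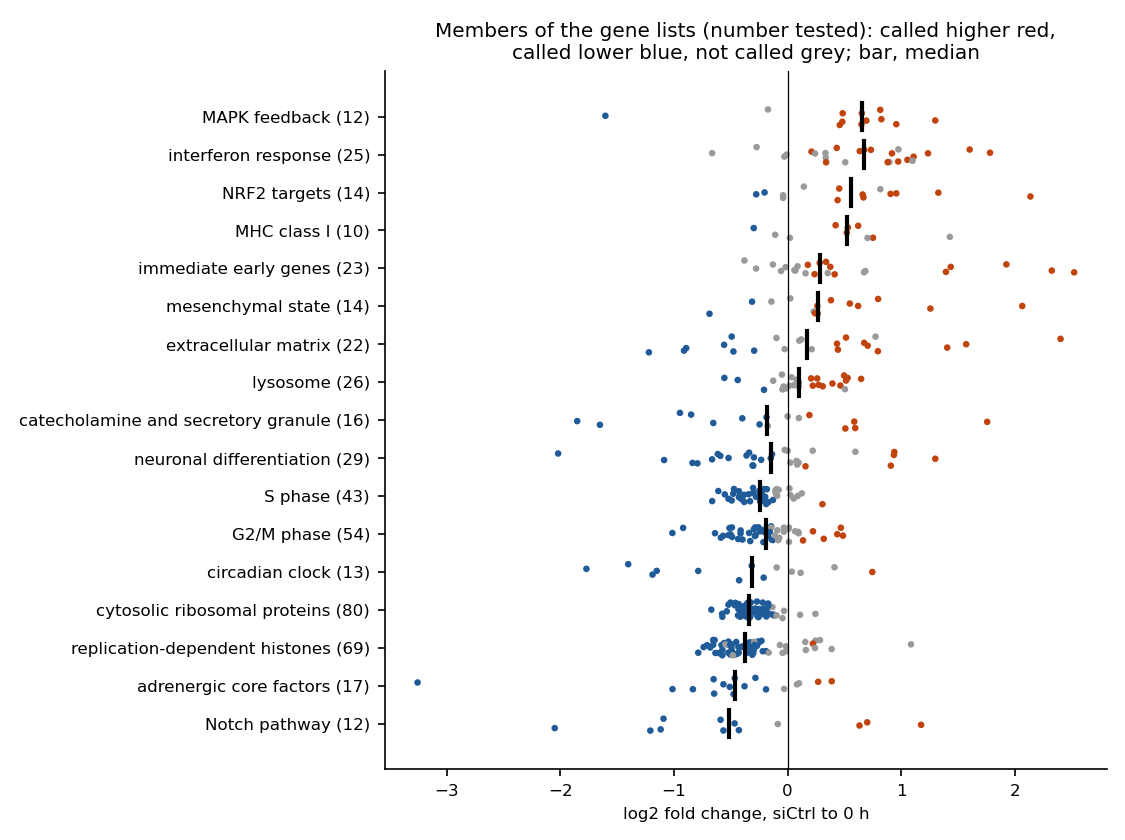
Log2 fold change of siCtrl over 0 h (x axis) for each tested member of 17 gene lists (rows, number tested in brackets), with the list median as a bar. Points of the MAPK feedback list lie mostly right of 0 around a median of 0.65, and those of the ribosomal proteins left of 0 around -0.34.

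Cytosolic ribosomal protein genes were lower with few exceptions. Of 80 tested cytosolic ribosomal protein genes, 73 were lower and 0 higher in edgeR, 1 was higher at an unadjusted p under 0.05, and the median was -0.34. Their summed level fell from 84292 and 85135 CPM to 68858 and 65721 CPM. RPS6, of the small subunit, was at 1826 and 1858 CPM at 0 h and at 1280.3 and 1187 CPM in siCtrl (log2 fold change -0.58 ± 0.04, adjusted p = 8.7e-11). RPL7 was at 1954 and 1992 CPM and then at 1304 and 1169.7 CPM (log2 fold change -0.67 ± 0.05), the largest fall of this list. RPLP0, often used as a reference gene, was lower by a small step, from 3222 and 3252 CPM to 3072 and 2904 CPM (log2 fold change -0.11 ± 0.04, adjusted p = 0.0311). For these 3 genes both siCtrl libraries were below both 0 h libraries. Among the 7 that were not called, RPS10, RPL17 and RPL36A were at 6.39 to 10.6 CPM in the 4 libraries. Copies and overlapping genes are common in this family, and the split of reads is uncertain.

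Ribosomal protein mRNAs begin with a C followed by a run of pyrimidines, the 5' TOP motif, through which their translation answers mTOR. A further list of 16 TOP genes that encode no ribosomal protein was chosen after the values were seen: 14 of the 15 tested were lower and 0 higher in edgeR, with a median of -0.31. EEF2, the translocation factor, was at 3875 and 3930 CPM and then at 3028 and 3065 CPM (log2 fold change -0.35 ± 0.04). RACK1, a scaffold on the small subunit, went from 2631 and 2695 CPM to 1997 and 1949 CPM (log2 fold change -0.43 ± 0.04). NAP1L1, a histone chaperone, fell furthest, from 1320 and 1288 CPM to 759 and 774 CPM (log2 fold change -0.76 ± 0.04). TPT1 was the exception, at 1597 and 1614 CPM against 1663 and 1506 CPM (adjusted p = 0.79). In the RefSeq windows a run of at least 8 pyrimidines at the start site was present for 49 of 64 ribosomal protein genes and for 8 of 9 of the further list, against 12.9% of all genes with a window and 15.2% of those tested here. The sequence around the start is shown for 4 of them, from 20 bases before it, with the run in capitals.
RPS6 (chr9:19380197-19380256, minus strand): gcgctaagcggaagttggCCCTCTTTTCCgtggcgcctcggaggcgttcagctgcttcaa
RACK1 (chr5:181243867-181243926, minus strand): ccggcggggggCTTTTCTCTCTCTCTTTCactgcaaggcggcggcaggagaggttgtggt
EEF2 (chr19:3985424-3985483, minus strand): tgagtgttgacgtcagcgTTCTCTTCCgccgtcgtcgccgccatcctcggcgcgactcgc
TPT1 (chr13:45341144-45341203, minus strand): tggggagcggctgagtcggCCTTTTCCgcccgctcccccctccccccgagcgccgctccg
TPT1 holds such a run as the others do, although its level did not pass the test.

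Most abundant structured RNAs of the nucleus and nucleolus were lower as well, with 7 of 10 tested called lower and 2 higher (median -0.40). SNORD3A, the U3 guide of ribosomal RNA processing, was at 8898 and 8503 CPM and then at 5536 and 4771 CPM (log2 fold change -0.75 ± 0.05). RMRP and RPPH1, the RNAs of RNase MRP and RNase P, had log2 fold changes of -0.47 ± 0.05 and -0.43 ± 0.04. RN7SL1, the RNA of the signal recognition particle, stood at 38144 and 36668 CPM against 39643 and 37554 CPM (adjusted p = 0.39). Recovery of such short RNAs can differ between library preparations, and its part in these values was not tested.

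Of 13 tested genes of the circadian clock list, which holds the core activators as well as their repressors and outputs, 8 were lower, 1 was higher and 4 were not called (median -0.32). PER1, a feedback repressor of the clock, was at 15.2 and 15.4 CPM at 0 h and at 6.03 and 7.28 CPM in siCtrl (log2 fold change -1.19 ± 0.10, adjusted p = 4.41e-10). PER3 was at 2.47 and 3.84 CPM and then at 0.960 and 0.882 CPM (log2 fold change -1.77 ± 0.23), and NR1D1, the nuclear receptor REV-ERB alpha, at 3.70 and 3.92 CPM and then at 1.32 and 1.54 CPM (log2 fold change -1.40 ± 0.18). ARNTL, encoding the activator BMAL1 that REV-ERB represses, was the 1 gene that rose, from 3.44 and 3.08 CPM to 5.43 and 5.50 CPM (log2 fold change 0.75 ± 0.14). The hour of harvest is not given in the labels. The E-box CACGTG, read by BMAL1 and its partner and also by MYC proteins, was in the window of 4 of 12 clock genes against 8.78% of all genes with a window and 12.6% of those tested here, and that of PER1 is shown with the box in capitals.
PER1 (chr17:8152552-8152597, minus strand): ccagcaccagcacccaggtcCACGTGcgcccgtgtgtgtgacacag

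NRF2 targets, which handle oxidants and iron, were higher for 8 of 14 tested genes and lower for 2 (median 0.56). HMOX1, haem oxygenase 1, rose from 1.84 and 1.31 CPM to 6.67 and 7.16 CPM (log2 fold change 2.14 ± 0.16, adjusted p = 5.34e-11), and GCLM, of glutathione synthesis, from 16.2 and 14.7 CPM to 29.7 and 28.2 CPM (log2 fold change 0.91 ± 0.08). TXNRD1, thioredoxin reductase, fell from 457 and 467 CPM to 396 and 366 CPM. Lysosomal genes were higher for 11 of 26 and lower for 3 (median 0.10), for example GAA, the acid alpha-glucosidase, at 27.7 and 28.9 CPM against 41.9 and 46.5 CPM.

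Hypoxia-responsive genes split, with 10 of 21 higher and 5 lower (median 0.06, and -0.13 with the length and GC offsets, -0.06 with a minimum of 10 counts). SLC2A1, the glucose transporter GLUT1, fell from 114 and 111 CPM to 42.0 and 45.4 CPM (log2 fold change -1.36 ± 0.05, adjusted p = 4.18e-16). ANGPTL4, an inhibitor of lipoprotein lipase, went from 3 counts in each 0 h library to 73 and 77 counts (log2 fold change 4.22 ± 0.41, which at such counts depends on the prior count of the fit). P4HA2, a collagen prolyl hydroxylase, rose from 5.48 and 4.998 CPM to 14.02 and 13.5 CPM (log2 fold change 1.39 ± 0.10), and VEGFA from 76.6 and 73.4 CPM to 106 CPM in both libraries. Glycolytic enzymes were lower for 7 of 16 and higher for 2, led by ENO1 at 1887 and 1924 CPM against 1404 and 1341 CPM. ENO2, the neuronal enolase, was higher at 214 and 226 CPM than the 156 and 158 CPM at 0 h.

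Among lipid genes, FASN and SCD, which make and desaturate fatty acids, fell from 484 and 485 CPM to 285 and 345 CPM and from 602 and 592 CPM to 363 and 395 CPM. The fatty acid list as a whole had 8 of 16 higher and 4 lower, with ME1 at 27.8 and 25.3 CPM against 46.2 and 44.6 CPM. Cholesterol synthesis was divided, with 5 of 24 higher and 7 lower. Its median was 0.05, and -0.06 with the length and GC offsets. The integrated stress response gave 7 calls each way among 25 genes, among them SLC7A5, the large neutral amino acid transporter, at 301 and 306 CPM against 149 and 173 CPM, and DDIT3 (CHOP) at 15.0 and 16.4 CPM against 26.5 and 23.2 CPM. Of 18 ER chaperone genes, 6 were higher and 2 lower, led by DNAJB9 at 20.6 and 19.8 CPM against 44.1 and 42.9 CPM, while HSPA5 (BiP), with siCtrl libraries at 274 and 363 CPM around 314 and 315 CPM at 0 h, was not called. Heat shock genes were higher for 6 of 13 and lower for 3 (median 0.15, and -0.04 with the length and GC offsets), with HSPA1A at 11.01 and 12.1 CPM against 15.3 and 16.7 CPM. Of the metallothionein list only 3 genes passed the filter. MT2A fell from 4.79 and 4.998 CPM to 3.00 and 3.53 CPM, and the zinc exporter SLC30A1 rose from 40.04 and 35.8 CPM to 65.7 and 60.7 CPM. Among TGF-beta and BMP targets 6 of 10 were higher and 2 lower, with SKIL at 78.6 and 73.9 CPM against 143 and 137 CPM and BMP7 at 71.6 and 75.1 CPM against 28.9 and 30.9 CPM. YAP targets gave 1 call each way among 8 genes, and CTGF was listed at 0 and CYR61 stayed below the filter. Medians of the sensor, ER chaperone, stress response and YAP lists were within 0.1 of 0 and changed sign under at least 1 scaling or left-out library, and that of the FOXO list was -0.07 and 0.03 with library totals. SESN3, of the 11 genes that answer glucose and FOXO factors, rose from 109.9 and 111 CPM to 260.4 and 260.0 CPM, and 3 of the 11 were higher and 4 lower.

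KDM6B, the H3K27 demethylase that the study targeted in other libraries, was not called. It stood at 7.72 and 8.43 CPM at 0 h and at 6.24 and 8.41 CPM in siCtrl (log2 fold change -0.13 ± 0.12, adjusted p = 0.41). The groups overlapped, and 1 siCtrl library set the value: it was -0.37 without siCtrl replicate 2 and 0.06 without siCtrl replicate 1. KDM6A, its paralogue, was at 39.98 and 43.6 CPM against 38.0 and 36.8 CPM (log2 fold change -0.16 ± 0.06, adjusted p = 0.0383). EZH2, the methyltransferase of PRC2, fell from 122 and 123 CPM to 89.9 and 88.8 CPM (log2 fold change -0.45 ± 0.05), and EED from 44.4 and 41.8 CPM to 30.7 and 29.9 CPM, whereas SUZ12 rose from 66.7 and 64.6 CPM to 78.1 and 72.7 CPM (log2 fold change 0.20 ± 0.05, and -0.10 with the length and GC offsets). Of the 12 H3K27 genes, 4 were higher and 5 lower, and the median of -0.05 became 0.05 with library totals. AKT1 was at 114 and 118 CPM against 120.1 and 124 CPM (adjusted p = 0.21), and MYC rested on 11 and 7 counts against 15 and 15 (adjusted p = 0.54). In the MYC network 7 of 12 were lower and 0 higher in edgeR (median -0.21), MYCN included.

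The other BE2C libraries of the series were set beside these 4, a step added after the data were seen. KDM6B was at 8.62, 6.87 and 7.92 CPM in the libraries labelled siKDM6B N1, N2 and N33, which overlaps the 6.24 to 8.43 CPM of the siCtrl and 0 h libraries, so they are called here by their labels. They share the siRNA treatment and its 72 h with siCtrl, and the 4 libraries with GSK-J4 for 24 h and 48 h share the 0 h libraries as their start. Of the 4264 genes called higher in siCtrl, 686 (16.1%) were higher in all 5 siRNA libraries than in all 6 of the GSK-J4 series. Of the 4265 called lower, 566 (13.3%) were lower in the same sense. Over all 16253 tested genes, called or not, these patterns held for 797 and 695. Called genes were already chosen for a difference between siCtrl and 0 h, which raises their shares. The genes named for these patterns were chosen after their values were seen. PTN, pleiotrophin, was at 36.9 to 44 CPM in the 6 libraries of the GSK-J4 series and at 138 to 172 CPM in the 5 siRNA libraries. DCN, LUM, MSN, C7, PDE1C and SGK1 were divided in that way, with SGK1, a kinase of the AKT family, at 10.6 to 20.4 CPM and at 59.2 to 115 CPM. In the opposite direction GRIK3, a kainate receptor subunit, was at 83.5 to 132 CPM in the GSK-J4 series and at 4.67 to 28.5 CPM in the siRNA libraries. ADCYAP1R1, the receptor of the neuropeptide PACAP, was at 108 to 149 CPM against 14.6 to 46.1 CPM, and TNNT2 and TOX3 were divided likewise.

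A further pattern set siCtrl apart from all other BE2C libraries. Both siCtrl libraries were above the other 9 for 994 of the 16253 tested genes and below them for 882. Among the genes called higher, 755 (17.7%) showed the former, and among those called lower, 695 (16.3%) showed the latter. In 49 and 41 of them, respectively, the gap to the nearest other library was over 1.5-fold at a mean of at least 1 CPM. SLC4A8, a sodium-driven bicarbonate exchanger, reached 290 and 302 CPM in siCtrl, against 64.6 to 135 CPM elsewhere. CNN2, calponin 2, was at 56.4 and 62.3 CPM against 6.49 to 25.2 CPM, and EFEMP2, an elastic fibre protein, at 27.1 and 29.8 CPM against 5.98 to 11.8 CPM. KDELR3, COL9A3, FAM114A1 and IL11 showed the same arrangement at lower levels. On the lower side, ARL6IP1, which shapes tubular endoplasmic reticulum, stood at 167 and 156 CPM in siCtrl, against 279.5 to 316 CPM in the other 9. IFNGR1, a chain of the interferon gamma receptor, was at 17.1 and 17.4 CPM against 31.9 to 50.5 CPM, HERPUD2 at 5.81 and 5.87 CPM against 13.05 to 22.7 CPM, and INIP, a partner of single-stranded DNA binding proteins, at 22.8 and 24.0 CPM against 41.3 to 77.3 CPM. DGAT2 and CDC42SE2 also belonged here. The remaining called genes fell into neither pattern. CRH was one, since it reached 147 and 151 CPM after 48 h of GSK-J4 and 12.8 CPM or less in the libraries labelled siKDM6B.

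**Figure D4:**
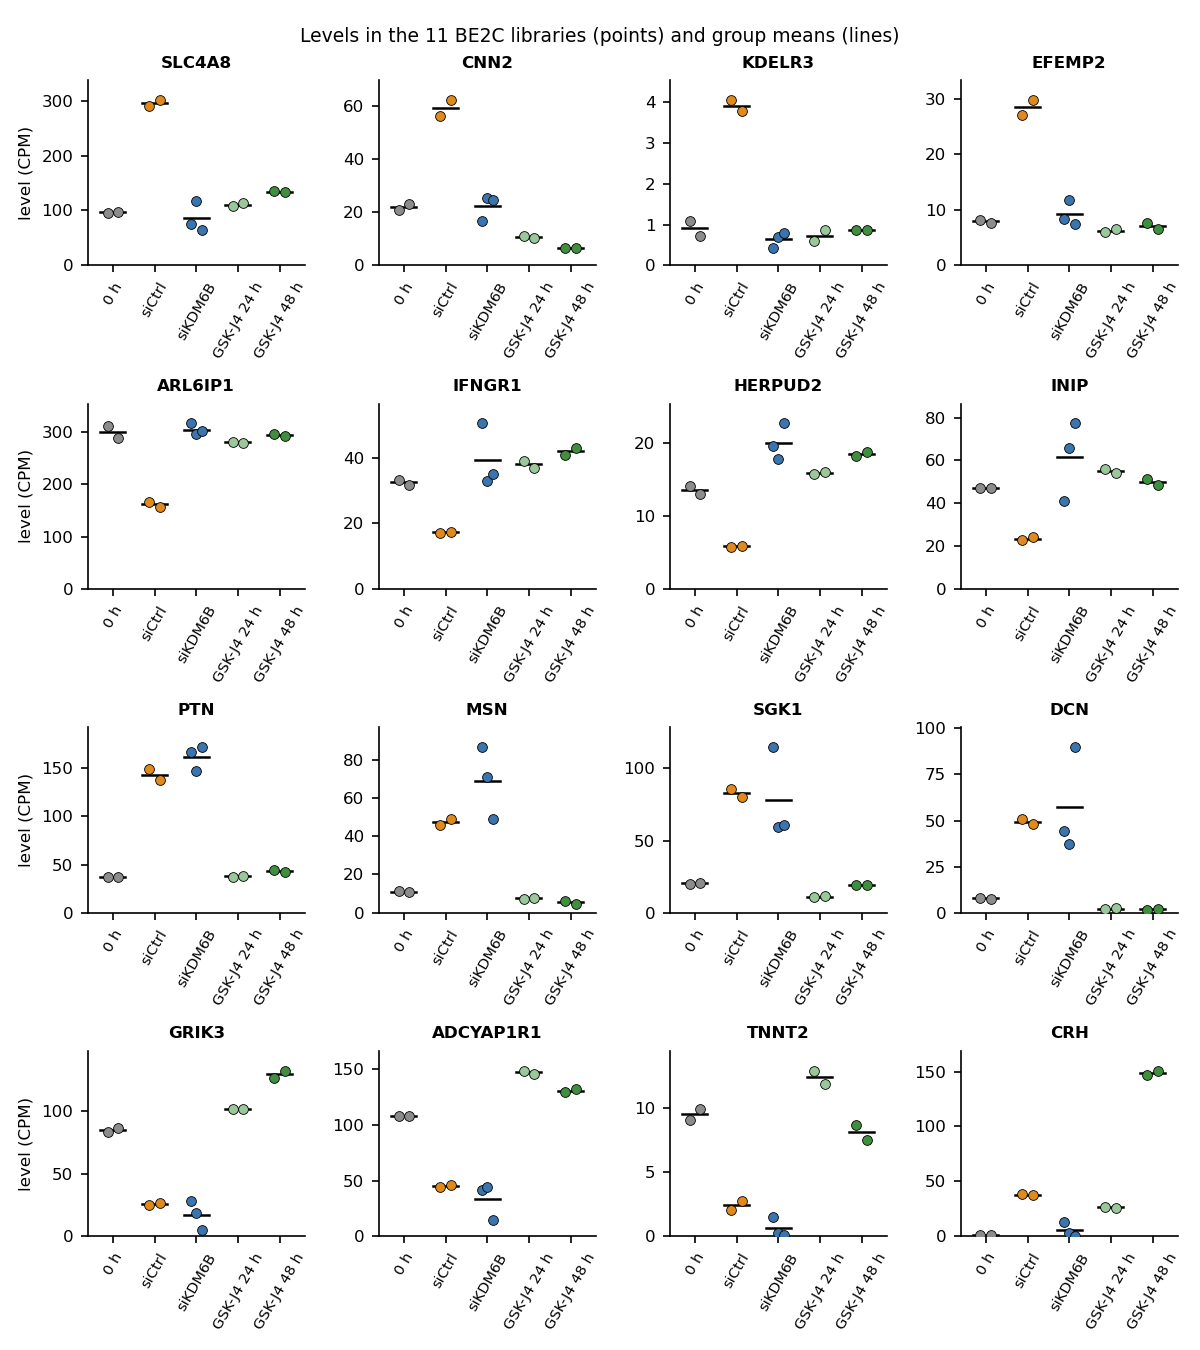
CPM of 16 genes (y axes, each from 0) in the 11 BE2C libraries (points) with group means as lines. The first 8 panels show genes for which siCtrl stands apart from all others, such as SLC4A8 at 290 and 302 CPM, the next 7 genes divide siRNA from GSK-J4 series libraries, such as PTN, and CRH follows neither.

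MYCN was lower than at 0 h in each of the other 9 BE2C libraries, at 1540 and 1549 CPM in siCtrl, at 446 to 1677 CPM in the libraries labelled siKDM6B and at 1473 to 1774 CPM with GSK-J4.

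The direction of change was related to base composition. Genes were split into 5 equal groups by the GC content of their longest transcript. In the group with the lowest content, 47.5% were called higher and 16.2% lower, with a median log2 fold change of 0.16. In the middle group these shares were 20.5% and 33.9%, with a median of -0.06, and in the group with the highest content 22.2% and 31.2%, with a median of -0.04. By transcript length the medians stayed between -0.04 and 0.04. With offsets for both, the medians of the 5 GC groups lay between -0.11 and -0.08, which includes the overall shift described with the scalings. The list medians named above as lower or higher by over 0.2 kept their direction.

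**Figure D5:**
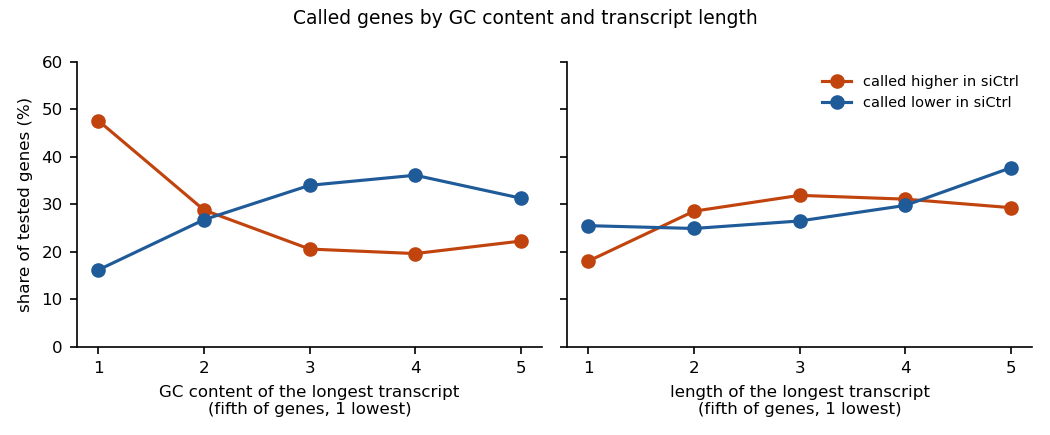
Share of tested genes called higher or lower in siCtrl (y axis, percent) in 5 equal groups by GC content (left) and by length (right) of the longest annotated transcript. In the group of lowest GC content 47.5% were called higher, and in the other 4 groups 19.6% to 28.8%.

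The calls rest on the narrow spread of 2 libraries a side. With all 11 BE2C libraries in 1 fit the outcome depended on how the siKDM6B libraries were grouped. Each of them is the sum of the 2 files of 1 siRNA, and N1, N2 and N33 are different siRNAs. Where the 3 formed a group, the common coefficient of variation was 0.248, which takes in differences between the siRNAs, and 175 genes were called, 89 higher and 86 lower. With each siRNA as its own group, a fit added after the data were seen, the coefficient was 0.0310 and 9038 genes were called, 4460 higher and 4578 lower. In that fit each siRNA is a single library, which adds nothing to the estimate of spread, so it is no separate check of the calls. Its coefficient was near the 0.0308 of the fit with the GSK-J4 libraries and without the siKDM6B libraries. Of the 166 called genes named here, 31 were called with the 3 siRNAs as a group. Among them were DCN, PRSS12, SCG2, MSN, FOS, EGR1, PER1, HMOX1, TRIM29 and SLC4A8. With the 3 siRNAs as a group the log2 fold change of MYCN was -1.02 as against -1.01, but MYCN (adjusted p = 0.371), DBH (0.353), CRH (0.0952), CCND1 (0.252), MKI67 (0.411), RPS6 (0.187) and ISG15 (0.323) did not pass. Calls within lists were lost in that fit as well. The interferon list went from 14 calls to 0, S phase from 33 to 0, G2/M from 40 to 0, histones from 54 to 0, ribosomal proteins from 73 to 0 and MAPK feedback from 11 to 0. At an unadjusted p under 0.05 these lists had 5, 5, 2, 0, 23 and 5 genes there. With each siRNA apart the same lists had 15, 34, 43, 54, 74 and 12 calls. The median of the interferon list was 0.70 and 0.65 in these fits, and that of the ribosomal proteins was -0.34 in both.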

How the data were processed

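Total RNA of samples labelled BE2C was sequenced as paired ends (the labels' extraction text names xenograft tissue); the submitters' processing notes name CASAVA, STAR 2.5.3a and HTSeq with GRCh37. The authors deposited whole-number counts per gene symbol for 50652 genes, without normalization. The methods name a mouse annotation, whereas the symbols are human. Reads on no gene stayed out of the library totals. The labels put the samples in groups, and the 2 files of each replicate were summed, since they differed less (chi-square per degree of freedom 1.48 to 1.53) than files of different replicates did (at least 1.89). The 2 files of each siKDM6B siRNA were summed likewise (1.499 to 1.62). The 0 h and siCtrl libraries were fitted alone with edgeR 4.0.16 in R 4.3.3 (filterByExpr, TMM, quasi-likelihood test, Benjamini-Hochberg threshold 0.05), giving 16253 tested genes; CPM were scaled over 11 libraries. SE is that of the fitted log2 fold change. The code was tested on simulated data. Alternatives used DESeq2 1.42.0, limma 3.58.1 (voom), other scalings, filters, samples in the fit, a replicate block and leaving out each library. Symbols were matched to GENCODE v44 on GRCh37, 28724 directly and 1414 by an older name. Named genes are, among called genes with a mean of at least 1 CPM and groups that do not overlap, the 10 largest and 10 smallest log2 fold changes (protein-coding) and CPM differences, list members and genes of the study. The members and lists were chosen with earlier results of these data known. Of 38 lists, that of the mitochondrial genome was not analysed here. The sequence of the control siRNA was not analysed here. Samples of other lines, with or without palbociclib, were not used here. Python 3.11.15, pandas 2.3.3, numpy 2.4.6 and matplotlib 3.10.9 made the tables and figures. Some genes are not reported here.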

Additional observations from a re-analysis of the deposited data

How the results depend on the processing

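Counts of called genes lay within 1.5 times the reported 8529 under DESeq2 (6656), limma-voom (8445), other scalings, other filters (8475 and 8221), each file as a sample (9021) and the GSK-J4 libraries in the fit (9034). A 2-fold minimum left 1157 genes, 789 higher and 368 lower. All 11 BE2C libraries in the fit, with the 3 siKDM6B siRNAs as 1 group, left 175, 89 higher and 86 lower. At an unadjusted p under 0.05 that fit had 2751. With each siRNA as its own group, chosen after seeing the data, 9038 were called. Single siRNA libraries add nothing to the estimate of spread there. Leaving out 1 library gave 6585 to 8485 calls.

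The labels link replicates of the 2 groups by number alone. Deviations of the replicate 1 libraries from their group means correlated at 0.043 over the tested genes. With 2 libraries a group, replicate 2 gives the same value. The replicate block gave 8962 calls, with a common coefficient of variation of 0.0332 as against 0.0387. With length and GC offsets the block gave 9149, of which 3231 were higher and 5918 lower. The offsets alone gave 9079 (3194 higher, 5885 lower), and they carry the overall shift described with the scalings.

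Of 3227 log2 fold changes of named genes under the alternatives, 15 turned direction, and the cause was not tested. The 3227 include the values under the 2-fold minimum, which are those of the reported fit and could not turn. With length and GC offsets, with and without the block, RGS5 was at -0.21 in both, HSPA5 at -0.0772 and -0.0911 and SUZ12 at -0.1018 and -0.1017, and RPL17 was at -0.0002989 with the block and offsets. With upper-quartile scaling and library totals, PHOX2A was at 0.00155 and 0.0692 and TPT1 at 0.0154 and 0.0821. Leaving out 1 library moved KDM6B between -0.373 and 0.063, HSPA5 between -0.201 and 0.211, PHOX2A between -0.0896 and 0.0213 and TPT1 between -0.0893 and 0.0483. Leaving out 0 h replicate 1 moved FBLIM1 from 2.72 to 3.36. HSPA5 was called higher without siCtrl replicate 1 and lower without siCtrl replicate 2.

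DESeq2 did not call KDM6A, E2F8, BST2, GATA3, HLA-C, IFIT3 and SPRY1. HAND2 was called in most alternatives. Without 0 h replicate 1, RGS5, HIST1H3E, HLA-C, JAG2 and RPLP0 lost their calls. Without 0 h replicate 2, RGS5, BCAT1, KDM6A, E2F8, DDC, IFIT3, RPLP0, SPRY1 and SUZ12 did. SPRY1 lost its call without siCtrl replicate 1, as did KDM6A and E2F8 without siCtrl replicate 2.

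Depth limits genes near 3 counts, about 0.0633 to 0.0829 CPM, and 2 libraries a group limit the estimate of spread. Groups of 2 are too small for a check of outlying libraries.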
